A study of Mus musculus with 24 samples.

Results

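Mouse retinal organoids (MROs) are small pieces of retinal tissue that form in culture from mouse embryonic stem cells. The data described here are the RNA sequencing libraries of the 6 individual organoids taken at D22 of culture, out of 24 organoids at 4 timepoints (D20, D22, D25 and D30, 6 each), all from 1 independent experiment. Every organoid came from E14Tg2a, a wildtype mouse embryonic stem cell line. The 6 at D22 are labelled as controls to which only water, the solvent, was added, so no labelled agent, allele or treatment separates the 6. Titles of the D25 and D30 organoids also carry the word Ctrl, and those of the D20 organoids do not. The study's culture protocol also cuts each young organoid by hand into pieces that grow on separately and gives all of them an early pulse of a synthetic retinoid, and which of the 6 came from the same starting organoid is not given in the sources used here. One library was made from the total RNA of each whole organoid after removal of ribosomal RNA, so each organoid is 1 sample, and all of them share 1 cell line and 1 culture experiment. The question was which genes differed most between sister organoids of the same age beyond counting noise, and which of those genes rose and fell together from organoid to organoid. Of 46603 annotated genes in the deposited counts, 12098 had a mean of 50 or more raw counts at D22 and were described. As a check of the label, retinal genes were present in all 6 organoids, among them Crx (710 to 1011 CPM, the counts scaled to a common library total with a normalization factor), Nrl (134 to 320 CPM), Otx2 (437 to 513 CPM), Pax6 (481 to 615 CPM) and Rax (118 to 152 CPM).

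The retina is built by dividing progenitor cells that use Notch signalling to stay undifferentiated and that give rise in sequence to ganglion, horizontal, cone and amacrine cells and later to rods, bipolar cells and Müller glia. Rod maturation switches on the proteins of phototransduction, such as the phosphodiesterase, the cyclic nucleotide gated channel and arrestin, under transcription factors such as Crx, Nrl and Nr2e3. Organoids have no blood vessels, and cells at low oxygen switch on glucose transporters, glycolytic enzymes, collagen hydroxylases and secreted factors such as adrenomedullin through the hypoxia inducible factors. In bulk RNA of whole organoids, fewer cells of a type and less RNA per cell cannot be told apart.

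The sequences shown here belong to the 2 largest sets of genes that varied together, called group 1 and group 2 and described with their values further on. RefSeq promoter windows (GRCm38.p6), from 250 bases before to 50 bases after the start of a gene, were matched for 31 of the 43 genes of group 1 and 16 of the 28 genes of group 2. They were searched on both strands for 2 motifs. TAATCC, which reads as GGATTA on the other strand, is bound by homeodomain factors of the Crx and Otx2 type. ACGTG, which reads as CACGT on the other strand, is the core of the hypoxia response element, and its readings on both strands can overlap each other. A window was counted once whatever its number of matches. TAATCC was found in 8 of the 31 windows of group 1 (25.8%), in 1 of the 16 of group 2 (6.25%), in 5.5% of the 8891 windows matched to genes of the D22 table and in 7.16% of all 27025 windows. ACGTG was found in 5 of the 16 windows of group 2 (31.3%) and 5 of the 31 of group 1 (16.1%), beside 26.8% of the windows of the D22 table and 19.7% of all windows. These shares are descriptions of sets chosen in these data and were given no test. For group 2 the share was close to that of the whole D22 table.

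The 4 windows of group 1 shown first are those of Cngb1 and Cnga1, the subunits of the rod cyclic nucleotide gated channel, Sag, the rod arrestin, and Pcare, a photoreceptor ciliary actin regulator. They lie at chr8:95306536-95306835 (minus strand), chr5:72642703-72643002 (minus strand), chr1:87803430-87803729 (plus strand) and chr17:71752856-71753155 (minus strand). Capitals mark TAATCC or its reverse complement, with 2 matches in the window of Cngb1 and 1 in each of the others.
Cngb1: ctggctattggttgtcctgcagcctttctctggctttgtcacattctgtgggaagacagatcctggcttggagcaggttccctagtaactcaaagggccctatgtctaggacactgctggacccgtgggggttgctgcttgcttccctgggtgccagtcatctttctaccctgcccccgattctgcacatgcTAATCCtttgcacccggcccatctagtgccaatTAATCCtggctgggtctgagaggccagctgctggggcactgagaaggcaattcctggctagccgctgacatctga
Cnga1: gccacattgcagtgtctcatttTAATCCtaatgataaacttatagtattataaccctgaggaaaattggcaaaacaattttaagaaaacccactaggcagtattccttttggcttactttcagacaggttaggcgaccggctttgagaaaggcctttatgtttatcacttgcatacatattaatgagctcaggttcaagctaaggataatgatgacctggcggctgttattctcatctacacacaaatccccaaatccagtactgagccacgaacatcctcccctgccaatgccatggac
Sag: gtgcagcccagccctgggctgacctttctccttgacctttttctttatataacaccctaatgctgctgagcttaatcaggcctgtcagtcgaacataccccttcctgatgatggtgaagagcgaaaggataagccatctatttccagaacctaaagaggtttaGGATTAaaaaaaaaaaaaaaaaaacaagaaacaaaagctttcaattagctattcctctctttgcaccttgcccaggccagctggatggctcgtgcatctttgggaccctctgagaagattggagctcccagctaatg
Pcare: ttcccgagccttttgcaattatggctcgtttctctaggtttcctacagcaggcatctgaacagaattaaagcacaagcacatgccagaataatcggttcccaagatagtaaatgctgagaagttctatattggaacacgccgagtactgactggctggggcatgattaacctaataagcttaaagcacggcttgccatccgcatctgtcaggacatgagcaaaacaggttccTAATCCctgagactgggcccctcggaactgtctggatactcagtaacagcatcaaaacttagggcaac

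The 2 windows of group 2 are those of P4ha2, a collagen prolyl hydroxylase, at chr11:54100674-54100973 (plus strand), and of Rnf217, a ubiquitin ligase, at chr10:31609676-31609975 (minus strand). Capitals mark ACGTG or its reverse complement, with 2 matches in P4ha2 and 1 in Rnf217.
P4ha2: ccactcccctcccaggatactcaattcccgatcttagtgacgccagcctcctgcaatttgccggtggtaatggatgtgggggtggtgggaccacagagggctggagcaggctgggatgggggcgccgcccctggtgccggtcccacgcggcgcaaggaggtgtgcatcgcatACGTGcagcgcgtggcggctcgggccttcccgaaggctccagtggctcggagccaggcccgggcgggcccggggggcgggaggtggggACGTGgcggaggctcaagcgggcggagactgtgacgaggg
Rnf217: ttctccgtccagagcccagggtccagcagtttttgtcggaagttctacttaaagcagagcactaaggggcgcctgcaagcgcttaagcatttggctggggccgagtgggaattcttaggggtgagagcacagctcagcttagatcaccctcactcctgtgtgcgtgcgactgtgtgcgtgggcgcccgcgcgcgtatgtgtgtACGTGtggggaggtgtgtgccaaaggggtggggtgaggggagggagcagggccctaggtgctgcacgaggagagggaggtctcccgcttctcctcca

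The 6 libraries were alike in depth and composition, with 1 measure that differed. Between 13942695 and 15789570 reads were counted on features per organoid (median 14783556), which makes 3 counts equal to 0.190 to 0.215 CPM. Between 15597 and 15932 genes had 10 or more counts, and TMM factors (edgeR's scaling for composition) ran from 0.984 to 1.02. Messages of ribosomal proteins took 1.87% of the annotated counts in organoid 2, 1.91% in organoid 3, 2.42% in organoid 5, 2.45% in organoid 4, 2.63% in organoid 1 and 3.44% in organoid 6. Reads outside every feature made up 41.3% to 45.6%, highest in organoid 1. All pairs of D22 libraries differed beyond sampling noise, so each was counted as 1 replicate.

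The spread of each gene was measured as its biological coefficient of variation (BCV), which is the standard deviation of the scaled counts over their mean after the part that counting alone gives has been removed. Counts of 10856 of the 12098 genes (89.7%) varied more than counting noise allows (chi-square index of dispersion with 5 degrees of freedom, Benjamini-Hochberg adjusted p below 0.01). With 1 library per organoid, differences between organoids and differences from library preparation cannot be told apart, and at this depth small differences of either kind pass. Most differences were small, with a median BCV of 0.149 over all 12098 genes. Genes with a BCV of 0.5 or more were called variable, and there were 218 of them (1.80% of the 12098). Only 7 of the 218 reached 1. Protein-coding genes made up 175 of the 218.

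Variable genes lay mostly at low counts, as the plot of BCV by level shows. Of 1712 genes with a mean of 50 to 100 counts, 126 (7.36%) were variable, against 71 of 5321 (1.33%) at 100 to 500 counts and 15 of 2516 (0.596%) at 1000 to 5000. With 6 organoids a BCV is itself uncertain. Leaving out 1 organoid brought 157 of the 218 genes below 0.5. The other 61 stayed at 0.5 or more in each omission that left them a mean of 50 or more counts. Genes that fell under that minimum without their highest organoid have no value for that omission, so 61 is an upper limit. The genes at the border were Csmd2, Osbpl5 and Serinc4 just inside (BCV of up to 0.501) and Gm42444, N4bp2os and ENSMUSG00000043498 just outside (BCV down to 0.499).

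**Figure D1:**
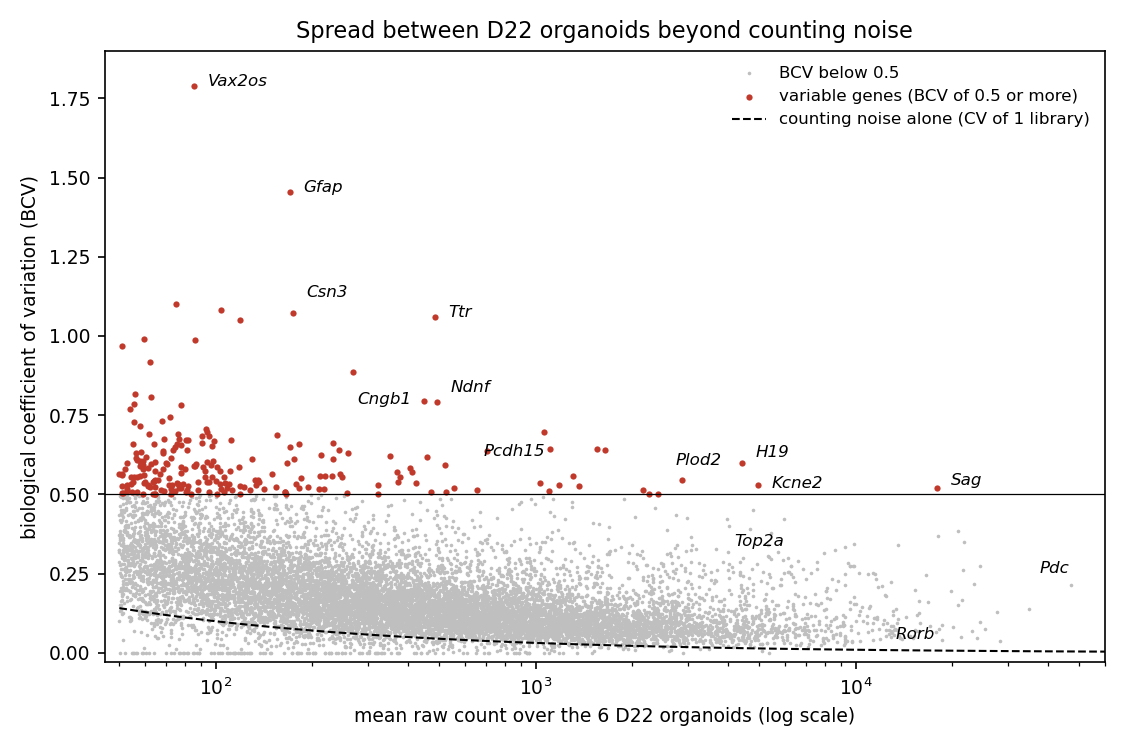
BCV of each of the 12098 annotated genes over the 6 D22 organoids (vertical axis) against its mean raw count (horizontal axis, log scale), with the 218 variable genes in red, the others in grey, and the coefficient of variation of counting noise in 1 library as a dashed line. Most variable genes sit below 500 counts, with Gfap at 1.45 and Ttr at 1.06, whereas H19, Plod2, Kcne2 and Sag are variable at more than 1000 counts.

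The largest spread belonged to genes of very different kinds. Vax2os, an antisense transcript of the ventral retinal factor Vax2 (chr6:83692806-83712201), had a BCV of 1.79 and ranged from 0 CPM in organoids 4 and 5 over a median of 0.588 to 26.3 CPM in organoid 2. It was high in organoids 2 and 1 and below 1 CPM in the other 4. Its mean was 85.8 counts, most of them from organoid 2. Without organoid 2 the mean of Vax2os fell under the minimum count, so its spread has no value for that omission. Gfap, the intermediate filament of astrocytes and reactive Müller glia (chr11:102887336-102900912), ranged from 0.824 over a median of 4.07 to 43.3 CPM, a 52.6-fold span with a BCV of 1.45. Organoid 6 was highest, organoids 5 and 2 followed, and the other 3 lay near 1 CPM. Without organoid 6 its BCV was still 1.26.

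Sparcl1, a secreted matrix protein, ranged from 2.68 over 11.9 to 44.9 CPM (BCV 0.89). Ttr, the carrier of thyroxine and retinol that is abundant in choroid plexus and pigment epithelium, ranged from 0.0644 over 27.4 to 90.7 CPM (BCV 1.06). It was below 0.5 CPM in organoids 1 and 3 and high in organoids 4, 5 and 6. Thbs1, a matrix glycoprotein, ranged from 0.392 over 4.57 to 13.2 CPM (BCV 0.99), and Ogn, a small matrix proteoglycan, from 0.644 over 3.46 to 10.7 CPM (BCV 0.92). Both had the same 3 organoids, 4, 5 and 6, above the other 3.

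Some genes owed their spread to a single organoid. Ndnf, a secreted neurotrophic factor, lay between 18.8 and 25.3 CPM in 5 organoids and at 85.5 CPM in organoid 6 (BCV 0.79, or 0.12 without organoid 6). Csn3, the kappa casein gene, lay between 4.26 and 11.97 CPM in 5 organoids and at 37.1 CPM in organoid 2 (BCV 1.07, or 0.45 without it). For 5 of the 218 genes, Gm10136, Ndnf, Zmat4, Gm24233 and AI847159, 1 organoid gave more than 80% of the summed squares. With 6 organoids this share cannot go far above 80%, so the cut is strict. Ube2c (79.5%), Csn3 (79.4%) and Vax2os (76.9%) fell a little under it, and the count does not measure how common spread from a single organoid was. Across all 218 genes the highest value fell in organoid 2 for 54 genes, in organoid 6 for 49, in organoid 3 for 39, in organoid 1 for 35, in organoid 5 for 26 and in organoid 4 for 15, so organoid 4 was the least extreme.

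Among genes with a mean of 1000 or more counts, the variable ones included Sag and Pcdh15, the imprinted RNA H19, the horizontal and amacrine cell factor Tfap2b, and Plod2, P4ha2, Kcne2 and Rnf217, whose levels are given further on. Rpl23a (BCV 0.70) and Rpl7a (BCV 0.64) were also among them, and since both ribosomal protein genes have many near-identical pseudogene copies, their counts are uncertain. The same holds for the pseudogenes Gm10136, Gm8186 and Rpl22-ps1. At the other end, genes such as Rsrc1, Armc8, Copg2 and Cd164 varied no more than counting noise (BCV of 0.00 to 2 decimals). Copg2, a subunit of the coat of Golgi vesicles, lay between 70.7 and 73.2 CPM in all 6 organoids. Transcription factors that mark retinal identity were similarly even, with a BCV of 0.05 for Rorb, 0.07 for Otx2, 0.09 for Pax6 and 0.09 for Rax.

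**Figure D2:**
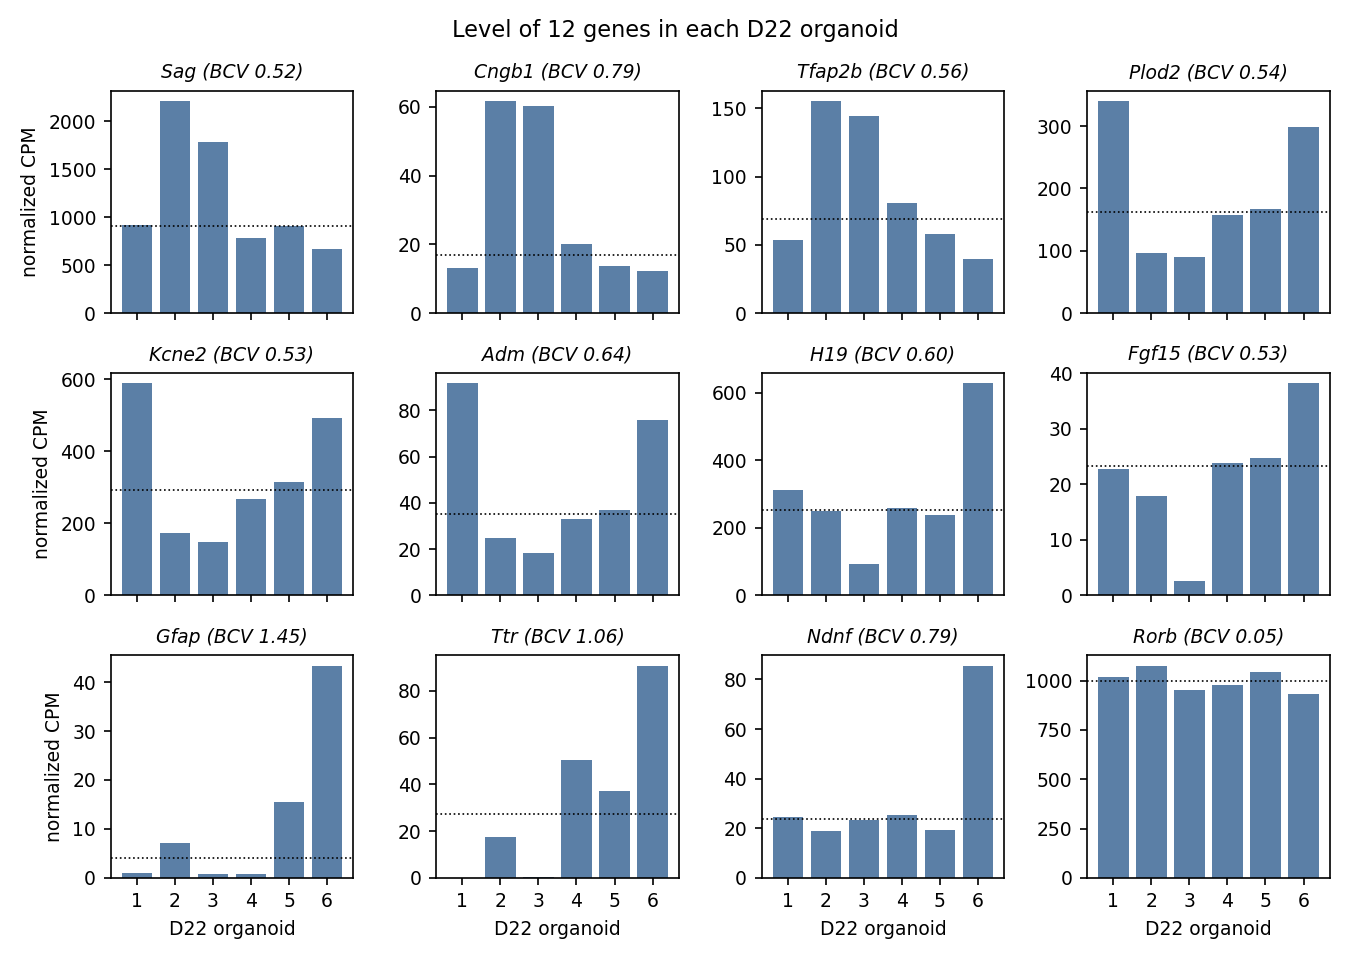
Level in normalized CPM (vertical axis, from 0, scaled per gene) of 12 genes in each of the 6 D22 organoids (1 bar per organoid, n = 1 library each), with the median of the 6 as a dotted line. Sag, Cngb1 and Tfap2b are highest in organoids 2 and 3, Plod2, Kcne2 and Adm in organoids 1 and 6, Fgf15 falls to 2.62 CPM in organoid 3, and Rorb stays between 931 and 1075 CPM.

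To find genes that vary together, the 218 variable genes were clustered by the Pearson r of their log2 normalized CPM over the 6 organoids, and sets of 10 or more genes were kept. This gave 7 groups with 131 genes, and 87 genes fell in none. The groups were chosen on these 6 libraries, and with 6 points a high r arises easily, since the mean absolute r over all pairs of the 12098 genes was 0.402. Their correlations at D22 are therefore descriptions without a test. With signs kept, the mean r over all pairs of the 12098 genes was 8.6e-05. That signed value, not 0.402, is the one to set beside the mean pairwise r of a gene list. The first 3 principal components of the 218 genes held 40.7%, 20.4% and 19.2% of the variance. The first set organoids 3 and 2 (scores 12.05 and 10.52) against organoids 6 and 5 (scores -12.1 and -7.43).

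**Figure D3:**
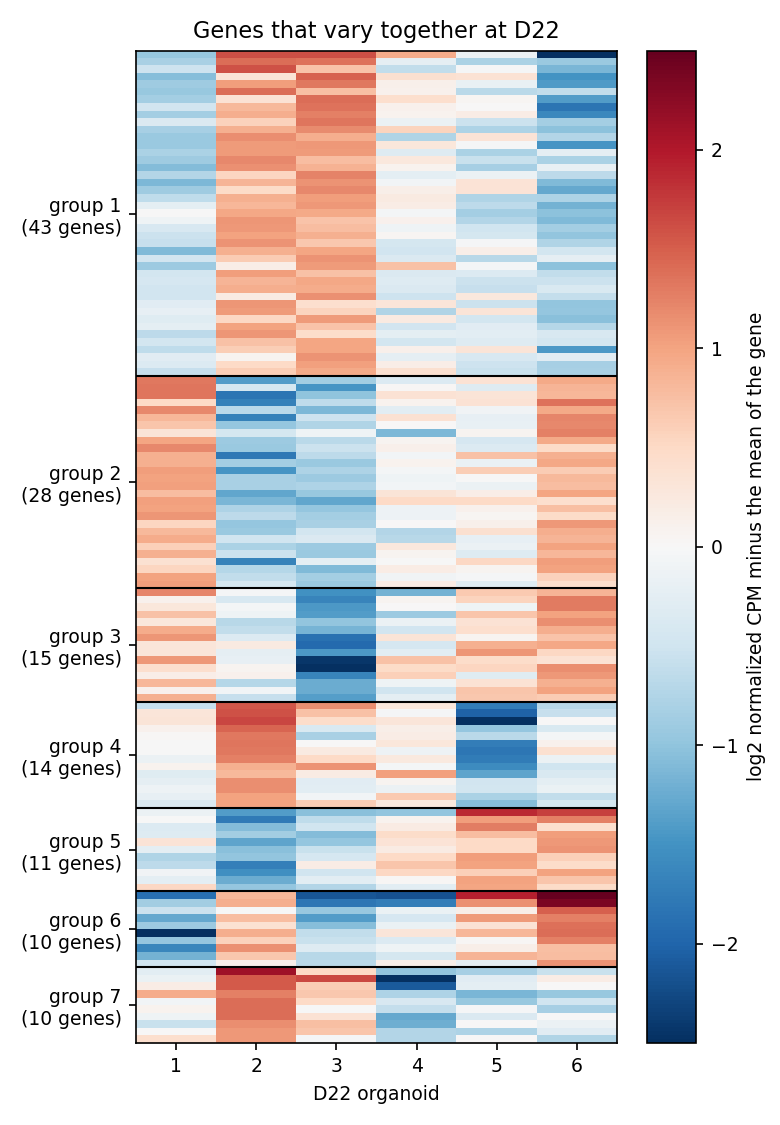
Log2 normalized CPM minus the mean of the gene (colour, saturated at 2.5 in either direction) for the 131 variable genes in 7 groups (rows, ordered by BCV within a group) in the 6 D22 organoids (columns). Group 1 is red in organoids 2 and 3 and blue in organoids 1 and 6, group 2 has the opposite pattern, and group 3 is set by low values in organoid 3.

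Group 1 held 43 genes that were high in organoids 2 and 3 and low in organoids 6 and 1. The rod list held 10 of the 43, among them Pde6g, Cnga1, Cngb1, Sag, Rcvrn, Impg1, Reep6 and Nxnl1, beside 45 of all 12098 genes. When Spearman's rho took the place of Pearson's r, 22 of the 43 stayed together, in a group of 24. The genes closest to the mean profile of the group were Cacna1f, the calcium channel of photoreceptor synapses, Tfap2b, Cngb1, Brinp1 and Impg1. All 43 genes had their highest value in organoid 3 (27 genes) or organoid 2 (16 genes), and 30 were lowest in organoid 6. The mean log2 deviation of the group was -0.62, 0.87, 1.01, -0.04, -0.29 and -0.94 in organoids 1 to 6.

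Cngb1 ranged from 12.3 over 16.8 to 61.7 CPM, 5.03-fold (BCV 0.79), and its channel partner Cnga1 from 15.2 over 22.0 to 55.1 CPM (BCV 0.62). Both channel subunits, whose promoter windows are printed above, were at their 2 highest levels in organoids 2 and 3.

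Sag ranged from 669 over 913 to 2212 CPM, 3.31-fold (BCV 0.52), with 2212 CPM in organoid 2 and 1787 CPM in organoid 3. Pcdh15, a cadherin of sensory cells, had the widest span of the group at high counts, from 20.0 over 67.0 to 147 CPM (BCV 0.64). Not all of group 1 were photoreceptor genes. Tfap2b ranged from 39.3 over 69.2 to 155 CPM (BCV 0.56) and Tfap2a from 4.24 over 8.57 to 17.2 CPM (BCV 0.56). Both are transcription factors of amacrine and horizontal cells, and they too were highest in organoids 2 and 3. The amacrine and horizontal cell list as a whole did not share this pattern (mean pairwise r 0.04). Of its 30 measured genes, organoid 3 was highest for 7 and lowest for 10, and organoid 2 was highest for 6 and lowest for 2.

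The rod list, which shares 10 genes with group 1, was also highest in organoid 3. Of its 50 genes 45 were measured and 11 were variable (24.4%, beside 1.80% of all genes), the 11th being Cabp4 of group 7, with a median BCV of 0.305 (0.149 over all genes). The highest value fell in organoid 3 for 36 of the 45 and in organoid 2 for 7, and the lowest in organoid 6 for 35. The mean pairwise r of the 45 genes was 0.73. The summed level of the list was 10298 CPM in organoid 6 and 21122 CPM in organoid 3. Transcription factors of photoreceptor fate had a BCV of 0.13 (Crx), 0.29 (Nrl) and 0.42 (Nr2e3).

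Group 2 held 28 genes with the opposite pattern, high in organoids 1 and 6 and low in organoids 2 and 3. Its leading genes were Plod2, a lysyl hydroxylase of collagen, P4ha2, Cdh13, Kcne2, a potassium channel subunit, and the pseudogene Gm7909. It held the 3 variable genes of the hypoxia and glycolysis list, Adm, P4ha2 and Ero1l, beside Hmox1, the haem oxygenase, Maff, the heat shock gene Hspa1a, the class I histocompatibility gene H2-K1, Car12, a carbonic anhydrase, and Cox4i2, a cytochrome oxidase subunit. All 28 were highest in organoid 1 (16 genes) or organoid 6 (12 genes), and the lowest value fell in organoid 2 for 14, organoid 3 for 12 and organoid 4 for 2. The mean log2 deviation was 0.90, -0.99, -0.80, -0.04, 0.05 and 0.87 in organoids 1 to 6. The share of ribosomal protein messages was also lowest in organoids 2 and 3 (1.87% and 1.91%) and highest in organoids 6 and 1 (3.44% and 2.63%), and its part in the result was not tested.

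Plod2 (chr9:92542223-92608428) ranged from 90.6 over a median of 162 to 340 CPM, a 3.75-fold span (BCV 0.54). Organoid 1 was highest, organoid 6 followed at 297.9 CPM, organoids 4 and 5 lay between 157 and 168 CPM, and organoids 2 and 3 were lowest. P4ha2 ranged from 34.6 over 57.0 to 124 CPM (BCV 0.54), Kcne2 from 150 over 291 to 588 CPM (BCV 0.53), Rnf217 from 39.2 over 69.4 to 153 CPM (BCV 0.53) and Adm, the secreted peptide adrenomedullin, from 18.2 over 35.0 to 91.5 CPM, 5.04-fold (BCV 0.64). In each of these the 2 highest organoids were 1 and 6 and the 2 lowest 2 and 3. Leaving out 1 organoid took Sag, Tfap2a, Tfap2b, Plod2, P4ha2 and Kcne2 to a BCV between 0.44 and 0.49, and Rnf217 to 0.37 without organoid 1, whereas Cngb1, Cnga1, Pcdh15, Cacna1f, Impg1 and Adm stayed at 0.5 or more whichever was left out.

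The wider hypoxia and glycolysis list was likewise highest in organoids 1 and 6 and lowest in organoids 2 and 3 on average, at a smaller spread. Of its 40 genes 38 were measured, and 3 were variable (1.80% of all genes were), with a median BCV of 0.272. The highest value fell in organoid 1 for 28 of the 38 and in organoid 6 for 7, the lowest in organoid 2 for 21 and in organoid 3 for 12, and the mean pairwise r was 0.63. Slc2a3, a glucose transporter, ranged from 84.2 over 146 to 255 CPM (BCV 0.46). Hk2, hexokinase 2, ranged from 143 over 240 to 419.7 CPM (BCV 0.42), and Bnip3, a mitochondrial protein induced at low oxygen, from 177 over 299 to 462 CPM (BCV 0.39). The summed level of the list ran from 8954 to 15021 CPM. Of the stress lists, amino acid and unfolded protein stress genes (1 of 31 variable, median BCV 0.156), heat shock genes (1 of 13, 0.116) and antioxidant genes (1 of 19, 0.146) had medians near that of all genes.

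Group 3 held 15 genes, led by Rsph1, Cd1d1, Sfxn5, Adamts9 and Fgf15, that were low in organoid 3 (mean log2 deviation -1.60) and high in organoid 6 (0.92). Fgf15, a growth factor of retinal progenitors, ranged from 2.62 over 23.3 to 38.2 CPM, 14.6-fold (BCV 0.53, or 0.29 without organoid 3). H19, an imprinted noncoding RNA, ranged from 94.2 over 253 to 627 CPM (BCV 0.60, or 0.35 without organoid 6). Cyp26a1, which degrades retinoic acid, ranged from 4.71 to 20.4 CPM (BCV 0.55). Without organoid 3, the mean pairwise r of the group dropped from 0.83 to 0.57.

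The other groups were smaller and held mostly genes of low level. Group 4 (14 genes, led by Ppil6, Slc4a10, Ano4, Zfp804a and Csmd2) was high in organoid 2 and low in organoid 5. Its member Slc4a10, a sodium bicarbonate transporter of neurons, ranged from 2.17 over 7.71 to 18.7 CPM (BCV 0.61), and it included Gabra2 and Glra2, receptor subunits for GABA and glycine. Group 5 (11 genes, with Timp3 and Phgdh) was low in organoid 2. Group 6 (10 genes) held Gfap, Chl1, Opcml and Sema3c and was high in organoid 6 (mean log2 deviation 1.52) and low in organoids 1 and 3 (-1.26 and -1.02). Group 7 (10 genes, with Csn3, En2, Grm8 and Cabp4) was high in organoid 2 and low in organoid 4.

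Among genes of dividing cells, organoid 5 was most often the highest. Of 42 measured genes of dividing cells 2 were variable (4.76%, beside 1.80% of all genes), Plk1 and Ube2c (BCV 0.58 and 0.52, or 0.28 and 0.10 without organoid 5), and the median BCV was 0.278. Mki67 ranged from 180 over 216 to 402 CPM and Top2a from 182 over 253 to 416 CPM, both highest in organoid 5, as were 27 of the 42 genes. Of 34 Notch and progenitor genes 1 was variable (2.94%), Fgf15, with a median BCV of 0.258, and the lowest value fell in organoid 3 for 16 and in organoid 2 for 12. The mean pairwise r was 0.44 for the dividing cell list and 0.36 for the progenitor list, beside 8.6e-05 over all pairs of genes. Müller glia genes had 3 of 29 variable (10.3%; Gfap, Timp3 and Fgf15), and genes of bipolar cells (15 measured) and ganglion cells (18) had none. Cone genes had 1 of 10 variable (Kcne2), and amacrine and horizontal cell genes 2 of 30 (Tfap2a and Tfap2b). Counts of 1 to 3 genes are too few to set these lists apart from the 1.80% of all genes.

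Lists of tissues other than neural retina differed in level, and 1.80% of all genes is again the share to set beside their variable members. The endothelium and blood cell list had 1 of 23 genes measured and 12 at 0 in all 6 organoids, among them Vwf, Emcn and the globin genes. The muscle list had 3 of 24 measured, none variable, and a summed level of 43.8 to 57.1 CPM. The cortex neuron list had 15 of 26 measured and none variable, at a summed level of 1915 to 2379 CPM. The mesenchyme list had 15 of 39 measured, 1 of them variable (Ogn), and a summed level of 446 to 643 CPM with Twist1 at 0. The choroid plexus and ciliated cell list had 6 of 21 measured and 3 variable (Ttr, Rsph1 and Kcne2), and its summed level of 691 to 1134 CPM included the retinal gene Otx2 and Kcne2 and had the same order of organoids as Kcne2, highest in organoid 1, where Ttr was lowest. The surface epithelium and endoderm list had 4 of 25 measured, 8 at 0 (Krt5, Krt14, Alb and Foxa2 among them), and a summed level of 37.9 to 158 CPM that includes Ttr and was, like Ttr, highest in organoids 6, 4 and 5. The pigment epithelium list had 10 of 30 measured with Ttr alone variable, and a median BCV of 0.285 (0.149 over all genes). Its summed level of 205 to 473 CPM includes Ttr and was lowest in organoid 3 and highest in organoid 6. Its most abundant member Dct ranged from 80.7 to 212 CPM with the same lowest and highest organoids. The part of such cells in the spread of Ttr was not tested.

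The same BCV was then computed in the organoids of the other timepoints, which had no role in the choice. Of the 218 genes, 183 were measured at D20, 191 at D25 and 173 at D30, and of these 38, 44 and 38 reached 0.5. Over all genes of those timepoints, 1.79% of 12235, 3.70% of 12653 and 4.93% of 12965 did. The median BCV of the 218 was 0.326, 0.318 and 0.347, beside 0.138, 0.127 and 0.166 over all genes. Genes chosen for a high BCV at D22 thus also had a higher median BCV than all genes at each other timepoint, although many of them have low counts, where BCV is higher in all genes. In all, 219, 468 and 639 genes were variable at these 3 timepoints in turn.

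Of the variable genes, 12 spread at every timepoint, and 140 reached 0.5 only at D22 of the timepoints where they were measured. Gfap had a BCV of 0.99 at D20, 0.60 at D25 and 0.87 at D30, and Ttr of 0.99, 0.74 and 1.26. The genes at 0.5 or more at all 4 timepoints included Gfap, Ttr, Thbs1, Nell2, Chl1, B230334C09Rik, Opcml, Sema3c, Plcb1, Tmem132b and Lrrc7. For Sag the BCV was 0.41 at D20, 0.14 at D25 and 0.39 at D30, beside 0.52 among the D22 organoids. Cngb1, below the minimum count at D20, had 0.09 at D25 and 0.30 at D30, beside 0.79. Adm had 0.17 at D20, 0.53 at D25 and 0.58 at D30, beside 0.64.

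**Figure D4:**
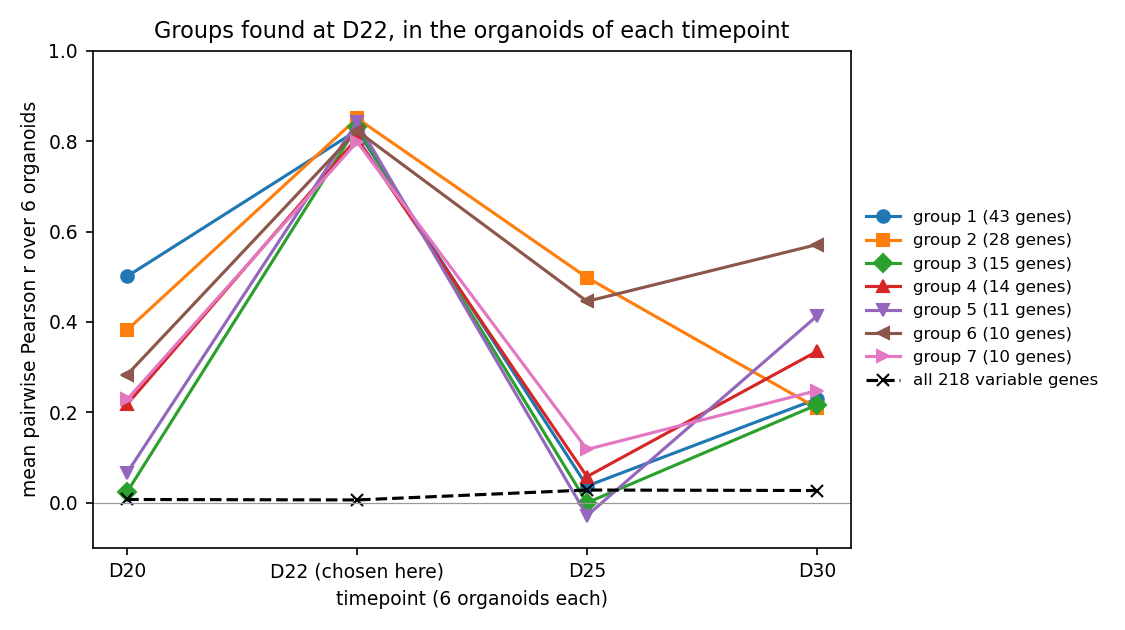
Mean pairwise Pearson r (vertical axis) of the measured genes of each D22 group over the 6 organoids of each timepoint (horizontal axis), with all 218 variable genes as a dashed line. All groups are near 0.8 at D22, where they were chosen, group 1 is at 0.50 at D20 and 0.04 at D25, and groups 2 and 6 stay between 0.21 and 0.57 at the other timepoints.

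Whether the groups held together elsewhere was asked with the mean pairwise r of their genes over the 6 organoids of each other timepoint. For all 218 genes this r was 0.01 at D20, 0.03 at D25 and 0.03 at D30. Group 1 had 0.50 at D20 (26 genes measured), 0.04 at D25 and 0.23 at D30. Group 2 had 0.38, 0.50 and 0.21. Group 6, the set with Gfap, had 0.28, 0.45 and 0.57, the highest of the 7 groups at D30. Group 3 had 0.02, 0.00 and 0.22. These values rest on 6 organoids per timepoint and are descriptions without a test.

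The r between the mean profiles of groups 1 and 2 changed sign between timepoints. Over 6 organoids each it was -0.79 at D20, 0.58 at D25 and -0.39 at D30, beside -0.97 in the organoids where the groups were chosen. The rod list had a mean pairwise r of 0.53 at D20, 0.20 at D25 and 0.79 at D30, and the hypoxia and glycolysis list of 0.37, 0.67 and 0.49.

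Pairs of single abundant genes allowed a test. For 8 marker lists the member with the most counts was taken. This gave 7 genes, since Pax6 had the most counts in both the progenitor and the amacrine list, and 21 pairs. The pairs describe single genes, not lists. Mean pairwise r was 0.73, 0.63, 0.44 and 0.36 in the rod, hypoxia and glycolysis, dividing cell and progenitor lists. It was 0.02, 0.04, 0.08 and 0.09 in the Müller glia, amacrine, pigment epithelium and immediate early lists. Pearson r over the 6 organoids passed an adjusted p of 0.05 in 5 of the 21 pairs (two-sided exact permutation test, Benjamini-Hochberg over 21). Pdc, the rod phosducin (2357 to 4167 CPM, highest in organoid 3), was inversely related to Dkk3, a secreted Wnt modulator listed for Müller glia (265 to 496 CPM, lowest in organoid 3), with r = -0.97 (n = 6, exact permutation p = 0.00278, adjusted p = 0.0292). Spearman's rho for this pair was -0.94 (exact permutation p = 0.0167, adjusted p = 0.0583), and r without the 2 organoids farthest from the median was -0.95.

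The other 4 pairs had r of -0.94 (Pdc and Dct), -0.93 (Pdc and Pax6), 0.93 (Dkk3 and Dct) and 0.92 (Pax6 and Dkk3), each with an exact permutation adjusted p between 0.0292 and 0.0408. Without the 2 farthest organoids their r was -0.85, -0.94, 0.96 and 0.97. By Spearman's rho 0 of the 21 pairs passed, with the lowest adjusted p at 0.0583. Dkk3 and Dct had the same order of organoids (rho of 1), with the smallest two-sided exact permutation p that 6 organoids allow (0.00278). A single pair in perfect rank agreement could thus not pass among 21, and the Spearman result does not decide on the 5 pairs. Pkm, the glycolytic pyruvate kinase, had r = -0.71 with Pdc (exact permutation p = 0.117, adjusted p = 0.188, n = 6), which did not pass. In the other 18 organoids, centred on the mean of their timepoint, 0 of the 21 pairs passed (100000 permutations within timepoints), and 10 of 21 had the same sign as at D22. For Pdc and Dkk3, r was -0.78 at D20, 0.47 at D25 and 0.75 at D30.

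D22 lies between D20 and D25, so the change between those timepoints was set beside the spread. D25 organoids were compared with D20 organoids by edgeR's quasi-likelihood test, with the D22 libraries left out of the fit so that no organoid is shared. Of the 12098 genes, 16.3% were higher and 12.4% lower at D25 (adjusted p below 0.01). Of the 218 variable genes, 67 (30.7%) were higher and 36 (16.5%) lower. In group 1, 37 of 43 genes were higher at D25 and 0 lower. In group 2, 0 of 28 were higher and 12 lower. Groups 4 and 7 held 6 of 14 and 7 of 10 genes that were higher and 0 that were lower, and groups 3 and 5 held 5 of 15 and 3 of 11 that were lower, with 1 higher in each. In group 6, which was highest in organoid 6, 2 of 10 were higher and 0 lower, with a median log2 fold change of 1.74.

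Among the named genes, the log2 fold change of D25 over D20 was 5.82 ± 0.35 (SE) for Cngb1 (edgeR adjusted p = 1.38e-11), 2.86 ± 0.25 for Sag (adjusted p = 6.52e-09) and 1.91 ± 0.26 for Tfap2b (adjusted p = 4.50e-06). For Plod2 it was -1.43 ± 0.15 (adjusted p = 1.73e-07), for Kcne2 -1.30 ± 0.24 (adjusted p = 2.60e-04) and for H19 -2.04 ± 0.25 (adjusted p = 1.56e-06). Not every gene of group 2 followed, with 0.62 ± 0.32 for Adm (adjusted p = 0.173) and -0.11 ± 0.33 for Hmox1 (adjusted p = 0.848). Genes that were highest in organoid 6 at D22 went both ways. Some were higher at D25, with 3.61 ± 0.69 for Gfap (adjusted p = 0.000335), 4.96 ± 0.97 for Ttr (adjusted p = 0.000469) and 2.75 ± 0.49 for Sparcl1 (adjusted p = 0.000155). Others were lower, such as H19 and Fgf15 (-3.67 ± 0.37, adjusted p = 5.53e-08), or did not pass, such as Thbs1 (1.19 ± 0.53, adjusted p = 0.107). Genes higher at D25 were thus highest in different D22 organoids, group 1 in organoids 2 and 3, and Gfap, Ttr and Sparcl1 in organoid 6.

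**Figure D5:**
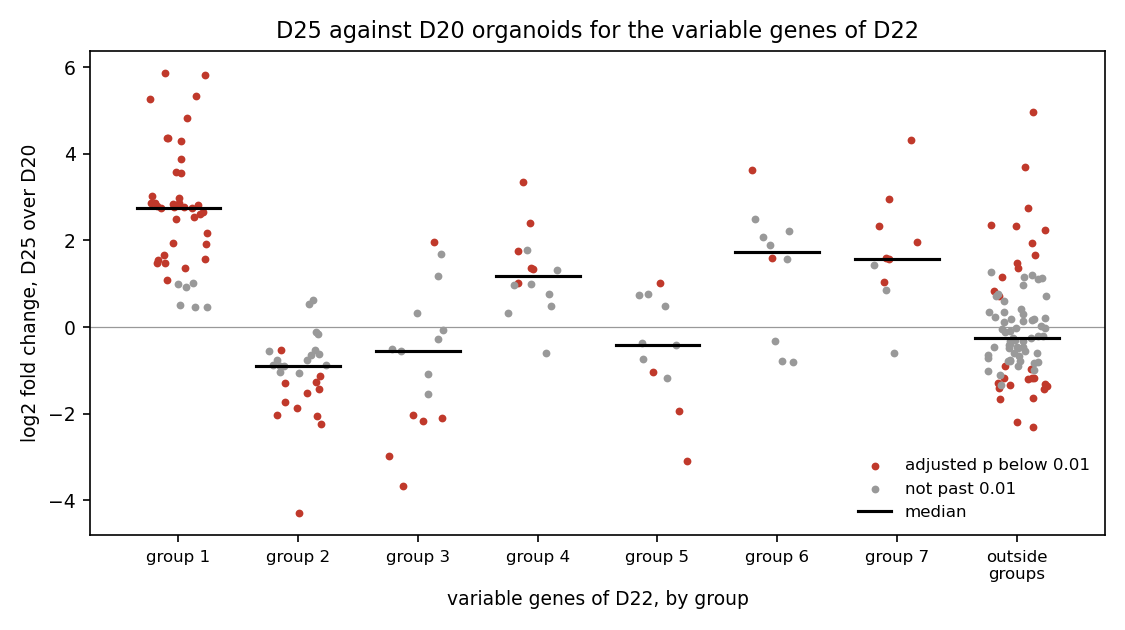
Log2 fold change of D25 over D20 organoids (vertical axis, edgeR, D22 left out) for each variable gene of D22 (1 point per gene), by group (horizontal axis), in red where the adjusted p is below 0.01 and with the median as a bar. Group 1 lies above 0 with a median of 2.75, group 2 has a median of -0.89 and no gene past the threshold above 0, and group 6 has a median of 1.74.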

How the data were processed

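The authors trimmed the reads, aligned them to the GRCm38/mm10 genome with HISAT2, assembled transcripts with StringTie (version 1.3.3) and counted reads per feature with HTSeq (version 0.6.1), per the submitters' processing notes and the paper. The deposited values are raw whole-number counts for 126602 features (46603 annotated genes), without normalization. The 5 summary lines per library were left out. The library kit was strand-specific, but the strand setting of the counting is not given in the sources used here, so overlapping and antisense genes such as Vax2os are uncertain.

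Groups and organoid numbers came from the labels. The numbers only name organoids. Symbols and coordinates came from a GENCODE annotation of GRCm38. Normalized CPM used TMM factors of edgeR (version 4.0.16, R version 4.3.3) from annotated genes with a mean of 50 or more counts. Log2 values had 1 count at the mean D22 depth added. D25 against D20 was fitted with edgeR on D20, D25 and D30 organoids and features with a base mean of 10 or more. Groups came from average linkage on 1 minus r, cut at 0.3. Permutation tests used scipy and numpy under Python (version 3.11.15). The steps were tested on simulated counts. Counting intervals and limits cover counting error only. P-values of the edgeR and permutation tests rest on the spread between organoids of 1 experiment. Those of the chi-square test set the counts against counting noise alone.

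Genes were named by a rule: the 20 protein-coding and 5 other genes with the largest BCV, the 10 largest and 5 smallest with 1000 or more counts, the most abundant gene of 8 lists, the largest, second and smallest BCV of each list, and 5 leading genes of the 4 largest groups. Other members of the lists and groups, and genes at the threshold, were named after their values were seen. The members and lists were chosen with earlier results of these data known. Some genes that the rule names are not reported here. Alternatives were other scalings, count minimums, estimators and thresholds, each organoid left out, and other tests for D25 against D20.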

Additional observations from a re-analysis of the deposited data

Results flagged for a closer look

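Among 155 values tested for an organoid far from the other 5 (the 120 named genes, list sums and library measures, on the log2 scale for genes and sums), 6 had one. For independent and unselected values chance alone would give about 1 in 20 (7.8). Many of the named genes were chosen by their spread in these same 6 organoids, and many vary together, so 6 cannot be judged against 7.8. The gap to the nearest organoid as a share of the range was 0.806 for Ndnf, which was high in organoid 6. It was 0.715 for Fgf15 and 0.701 for Dlx1, both low in organoid 3. It was 0.639 for Ube2c, high in organoid 5. It was 0.788 for Copg2, whose 6 values lay between 70.7 and 73.2 CPM, with organoid 2 highest. It was 0.639 for the summed level of the retinoic acid genes, which was lowest in organoid 2 (582 CPM). Of the rod, hypoxia and glycolysis, and dividing cell sums, 0 had such an organoid.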

How the results depend on the processing

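The number of variable genes was 212 to 220 under 3 other scalings and 210 to 311 with an organoid left out. It was 801 with a minimum mean of 20 counts, 91 with 100, 8261 with no minimum, 42 with edgeR's shrunken tagwise dispersion and 7 at a BCV of 1 or more, so the list depends on the count minimum and threshold. Genes beyond counting noise numbered 10146 to 10430 with an organoid left out and 17578 with no minimum. Variable members of all lists numbered 24 to 46 with an organoid left out. The first principal component held 37.2% to 50.8% with an organoid left out, 34.1% at 20 counts, 24.9% with no minimum, 51.6% at 100 counts and 47.1% with scaled genes. With Spearman's rho, 22 of the 43 genes of group 1 and 24 of the 28 of group 2 stayed together. With the looser limit of 0.5 all of both did. Library totals left 3 anchor pairs past 0.05 instead of 5. D25 against D20 called 7252 features, 4564 with annotated genes only, where the split was 2383 higher and 2181 lower against 2388 and 1636 of the annotated genes in the main fit, and 6011 to 6876 with an organoid left out. With the replicate block it was 6792. Same-numbered organoids had r of -0.21 to 0.30, so the numbers were not taken as pairs, and 3 of 6 D25 libraries correlated best with their own number. Over all 21 settings, 35 to 38 genes of group 1 were higher and 0 lower, and 0 of group 2 higher and 11 to 15 lower. The omission of single organoids from the group correlations was chosen after seeing the data. Depth does not limit genes above 1000 counts, whereas at 50 counts the BCV of 6 organoids is imprecise.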
